A study of Mus musculus with 3 samples.

Results

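Notch signalling passes between touching cells. A ligand of the Delta or Jagged family on one cell pulls on a Notch receptor of its neighbour, proteases cut the receptor, and the freed intracellular part joins the DNA-binding protein Rbpj in the nucleus to switch on target genes, among them those of the Hes and Hey repressors. In the heart the pathway is best known for the growth of coronary vessels, the arterial identity of endothelium, the smooth muscle of vessel walls, the formation of valves and trabeculae, and the patterning of ventricular muscle. Levels of 10 of its genes are described here: the receptors Notch1, Notch2, Notch3 and Notch4, the ligands Dll1, Dll4, Jag1 and Jag2, and the transcriptional repressors Hey1 and Hey2. They were chosen by symbol from a deposited table of 18038 genes, and all 10 were found there.

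The table holds RNA sequencing values of 3 whole hearts of wild-type C57BL/6J mice, an inbred laboratory strain, at day 9 after birth. The study concerns glutamylated microtubules and the coupling of heart muscle cells, but these hearts carried no treatment or allele in their labels, and they form the only group. Below, each heart goes by its replicate number in the labels, 1, 2 or 3. The labels do not say whether each came from a separate animal, so the p-values speak only for the spread of these samples, and that spread may be technical. Comparisons are between genes within a heart, or of 1 gene between hearts.

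The libraries held 17766501, 18643408 and 18768094 counts. Markers of heart muscle were all detected (7 of 7), with a summed level of 78156 to 81546 TPM (abundance per transcript length, scaled to a total of 1000000 in each heart). Endothelial markers, from the cells in which much cardiac Notch signalling takes place, were also all detected (9 of 9), with sums of 1135, 1275 and 1243 TPM in hearts 1, 2 and 3. Heart 1 stood apart in genes of the lung airway and alveolus: their 7 markers summed to 1620 TPM there, 0.740 in heart 2 and 6.46 in heart 3, nearly all of it from the club cell gene Scgb1a1 and its relative Scgb3a2. The part of such tissue in the values of the Notch genes was not tested. Results are therefore given with heart 1 and, for named pairs whose call or direction depends on it, without. Variation calls of marker genes and other pathway genes are given with all 3 hearts only, so they can rest on heart 1. Whole hearts hold many cell types, and in them fewer cells of a type and less RNA per cell cannot be told apart.

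All 10 genes were detected, meaning a level of 1 CPM or more in each heart, where CPM is the count scaled to a library of 1000000. By that rule 12958 of all 18038 genes were detected. Their counts ran from 128 to 2447 per heart, and all were whole numbers, whereas reads divided between similar genes leave fractions. Positions are those of GRCm38. The receptor genes lie on chromosomes 2 (Notch1, Entrez gene ID 18128, RefSeq 26457902 to 26503822), 3 (Notch2, ID 18129, 98013538 to 98150367) and 17 (Notch3, ID 18131, 32120820 to 32166896, and Notch4, ID 18132, 34564286 to 34588543). Dll4 (ID 54485, 119325784 to 119335666) and Jag1 (ID 16449, 137081451 to 137116520) lie on chromosome 2, Dll1 (ID 13388, 15367354 to 15376932) on chromosome 17 and Jag2 (ID 16450, 112907803 to 112929812) on chromosome 12. Hey1 (ID 15213, 8663359 to 8667038) lies on chromosome 3 and Hey2 (ID 15214, 30832359 to 30842783) on chromosome 10, both on the minus strand.

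For several of these genes the locus given in the table is not the RefSeq one. The table begins Notch1 at 26445599 and ends Dll1 at 15379475, and puts both on the plus strand, whereas GENCODE places them on the minus strand. It begins Dll4 at 119321185 and Notch2 at 97978923, upstream of their RefSeq starts. These loci overlap other annotated genes: 0610009E02Rik over 13695 bases of the Notch1 locus, A930024N18Rik over 4476 bases of that of Dll1, Gm14207 over 5008 bases of that of Dll4, and the antisense gene Gm17276 over 21024 bases of that of Notch3. Gm42819 (5121 bases) and Gm42820 (3063 bases) lie in the Notch2 locus on the strand of Notch2 itself. Shorter overlaps were those of Gm13568 (1173 bases) and Mir6996 (61 bases) with Notch1, Gm20462 (408 bases) with Notch4 and Mir6941 (59 bases) with Jag2. The plus strand that the table gives Notch1 and Dll1 is that of 0610009E02Rik, Gm13568 and A930024N18Rik. Overlaps were measured over whole loci, introns included, and those of exons alone were not computed. No strand setting is given in the sources used here, so any reads of these partners counted for the Notch genes cannot be told apart. The levels of all 4 receptors, Dll1, Dll4 and Jag2 are uncertain to that extent, which was not measured. The loci of Jag1, Hey1 and Hey2 overlapped no other gene of that annotation.

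The 250 bases before an annotated start of a gene were searched for the core of the Rbpj site, GTGGGAA, on both strands. RefSeq windows on GRCm38.p6 were available for 9 of the 10 genes, all but Hey1, with 2 windows for Dll1. A match was found for Hey2 alone, and 5.42% of all 32851 windows of this length held one. It lies 207 to 201 bases before the start, in the reverse direction (TTCCCAC). The site is shown with those of Hes5 and Hes7, the only other target and feedback genes searched that held a match. Each line gives 30 bases, 5′ to 3′ on the strand of the gene, with the match in capitals: Hey2 at chr10:30842972-30843001, minus strand, Hes5 at chr4:154960686-154960715 and chr4:154960829-154960858, plus strand, and Hes7 at chr11:69120262-69120291, plus strand.
Hey2: gcgcggtggcaTTCCCACgcctctgccaac
Hes5, distal: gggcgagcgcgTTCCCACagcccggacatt
Hes5, proximal: ggccgccgagtGTGGGAAcggccgcggcgc
Hes7: cctcccctcacTTCCCACatttggggctag

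The Hey2 promoter from 250 to 51 bases before the start (chr10:30842834-30843033, GRCm38.p6, minus strand) reads as follows, again with the match in capitals.
Hey2 promoter: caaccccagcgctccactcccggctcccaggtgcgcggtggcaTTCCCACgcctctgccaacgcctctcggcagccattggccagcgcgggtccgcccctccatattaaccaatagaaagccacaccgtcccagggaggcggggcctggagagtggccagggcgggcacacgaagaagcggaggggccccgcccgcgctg

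Hey2 reached 24.3, 15.6 and 11.6 TPM in the 3 hearts, whereas Hes5, with 2 matches, had 0 counts in every heart and Hes7, with 1, had 3, 3 and 11 counts. Other target and feedback genes searched, Hes6, Nrarp and Efnb2, held no match, at mean levels of 30.1, 31.1 and 31.7 TPM. Hes1 and Heyl, among others, had no window to search. A match to these letters is a description of the window and not a binding site. The E-box CACGTG, a palindrome that basic helix-loop-helix proteins bind, was in none of the 10 windows of the Notch genes and in 6.02% of all windows. These windows were rich in G and C, from 56.0% in a window of Dll1 to 87.2% in that of Jag2, beside a median of 52.4% over all windows. The Jag2 window (chr12:112929496-112929745) lies inside the RefSeq gene, which ends at 112929812 on the minus strand. The other Dll1 window (chr17:15375824-15376073) lies inside its gene too. Both thus precede a start within the gene and not its outermost start.

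Notch3 was the most abundant receptor transcript. It encodes the receptor known from vascular smooth muscle and pericytes, and reached 27.8 TPM in heart 1, 33.0 in heart 2 and 30.9 in heart 3, a mean of 30.6 ± 2.61 TPM (SD, n = 3 here and below). Notch1, the broadly used receptor of endothelium and endocardium, was at 19.8, 23.2 and 21.4 TPM (21.5 ± 1.70). The lowest value of Notch3 lay above the highest of Notch1.

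Notch4, a receptor largely restricted to endothelium, was at 15.4, 20.6 and 20.9 TPM (19.0 ± 3.09), low in heart 1 and nearly equal in the other hearts. Notch2 was at 14.1, 14.6 and 11.0 TPM (13.2 ± 1.92) and was the only receptor whose lowest value fell in heart 3. Its values overlapped with none of Notch1 or Notch3. Of the summed receptor level of 84.3 ± 7.14 TPM, Notch3 took 36.3% ± 0.355, Notch1 25.5% ± 0.182, Notch4 22.5% ± 2.42 and Notch2 15.7% ± 2.58. The shares of Notch3 and Notch1 hardly moved between hearts, from 36.1% to 36.7% and from 25.4% to 25.7%.

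Receptor levels within a heart were set against each other by edgeR (quasi-likelihood), with the heart as a block, gene length in the offset and p-values adjusted over all genes tested against the same receptor. Notch3 lay above Notch1 in 3 of 3 hearts, by 0.51 in log2 (SE 0.0694, interval at 95% 0.35 to 0.66), at an edgeR adjusted p of 3.59e-05. Notch1 in turn lay above Notch2 in 3 of 3, by 0.71 (SE 0.106, 0.47 to 0.94), at an edgeR adjusted p of 7.33e-05. Notch1 was above Notch4 in 3 of 3 hearts, but the ratio of 0.19 did not pass the threshold (95% interval -0.02 to 0.40, edgeR adjusted p = 0.0836). Without a length correction it was 0.72 and passed (edgeR adjusted p = 1.48e-05). Notch4 is the shortest of the receptor transcripts, at 6499 bases beside 9416 for Notch1 by the lengths that the deposited counts and FPKM imply.

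**Figure D1:**
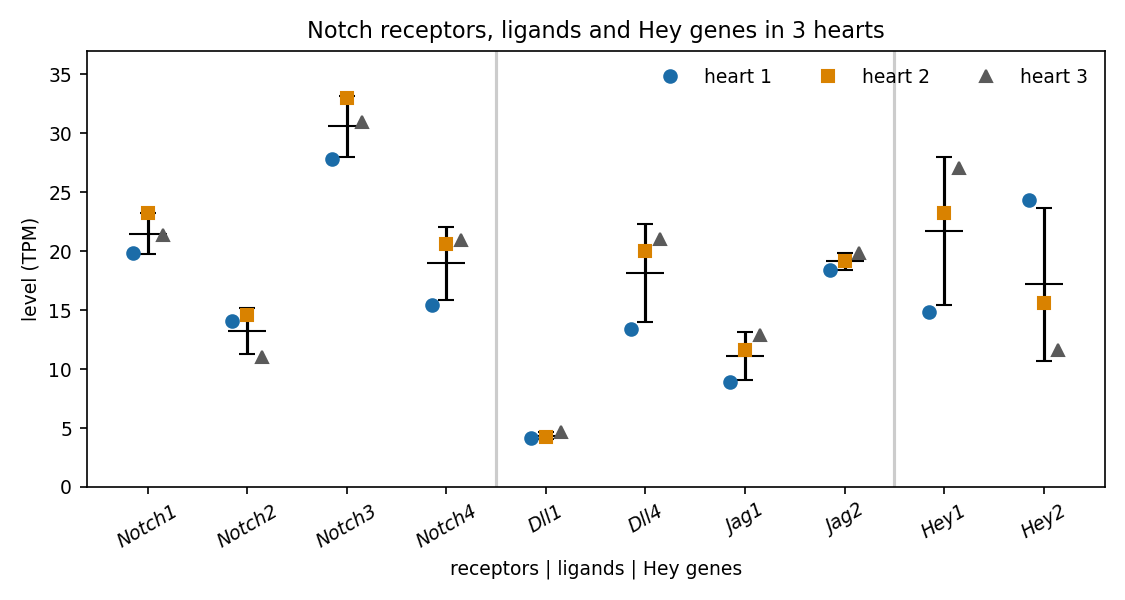
Levels in TPM of the 10 genes in hearts 1 (circles), 2 (squares) and 3 (triangles), with the mean (horizontal line) and SD (error bars). Notch3 is the highest at 30.6 TPM and Dll1 the lowest at 4.36 TPM, and the hearts spread widest for Hey1 and Hey2.

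Among ligands, Jag2 and Dll4 led. Jag2 was at 18.4, 19.2 and 19.9 TPM (19.2 ± 0.709), and relative to its mean its hearts lay closer together than those of the other 9 genes. Dll4, the ligand of arterial and sprouting endothelium, was at 13.4, 20.0 and 21.0 TPM (18.1 ± 4.13), with heart 1 well below the other hearts. Jag1, a ligand of endothelium and smooth muscle, was at 8.91, 11.6 and 12.9 TPM (11.1 ± 2.01). Dll1 was at 4.16, 4.22 and 4.70 TPM (4.36 ± 0.293), so its highest heart stayed below the lowest heart of every other gene of the group.

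The ligands summed to 52.8 ± 7.01 TPM, of which Jag2 held 36.6% ± 3.85, Dll4 34.1% ± 3.66, Jag1 21.0% ± 1.09 and Dll1 8.33% ± 0.835. Receptors exceeded ligands in every heart, by log2 ratios of 0.78, 0.73 and 0.53 (0.68 ± 0.134). No test was run on it, because with 3 hearts the smallest p of an exact sign-flip test is 0.25. It was 1.65 without a length correction, because receptor transcripts are longer.

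Dll4 exceeded Dll1, the other Delta ligand, in 3 of 3 hearts, by 2.04 in log2 in the edgeR fit (SE 0.124, 95% interval 1.80 to 2.28). That fit can be too narrow, as set out with the 45 pairs, and limma gave 2.03 with a wider interval of 1.62 to 2.44 (SE 0.171, adjusted p = 1.62e-05). Jag2 exceeded Jag1 by 0.80 (SE 0.227, 95% interval 0.35 to 1.25, edgeR adjusted p = 0.000603), in 3 of 3 hearts. That call was lost without heart 2 (0.85, edgeR adjusted p = 0.154). Dll4 exceeded Jag1 by 0.70 (SE 0.277, edgeR adjusted p = 0.0160), again in 3 of 3 hearts. The edgeR adjusted p rose to 0.389 when heart 2 was left out (ratio 0.65), to 0.197 when heart 3 was (0.70) and to 0.0567 when the longest annotated transcript gave the length (0.56). With no length in the offset the ratio was -0.027 (edgeR adjusted p = 0.932).

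Hey1 and Hey2 encode repressors that can pair with each other, Hey1 being known from endothelium and atrial muscle and Hey2 from ventricular compact muscle and arterial cells. Hey1 was at 14.8 TPM in heart 1, 23.2 in heart 2 and 27.1 in heart 3 (21.7 ± 6.28). Hey2 had the reverse order, at 24.3, 15.6 and 11.6 TPM (17.2 ± 6.51). Heart 1 was thus lowest for Hey1 and highest for Hey2, heart 3 the opposite, and the values of both genes overlapped.

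The log2 ratio of Hey1 to Hey2 was -0.72 in heart 1, 0.57 in heart 2 and 1.22 in heart 3. The ratio fitted to the 3 hearts was 0.36 with an SE of 0.374, its 95% interval ran from -0.37 to 1.10, and edgeR did not call it (adjusted p = 0.386). This depended on heart 1: without it Hey1 was higher by 0.89 (edgeR adjusted p = 9.39e-05), and without heart 3 the ratio was -0.075 (edgeR adjusted p = 0.926). Their sum barely differed between hearts, at 39.1, 38.9 and 38.7 TPM, while the share of Hey1 in it was 37.8%, 59.8% and 70.0%. The sum is a description of these 3 hearts with no test.

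**Figure D2:**
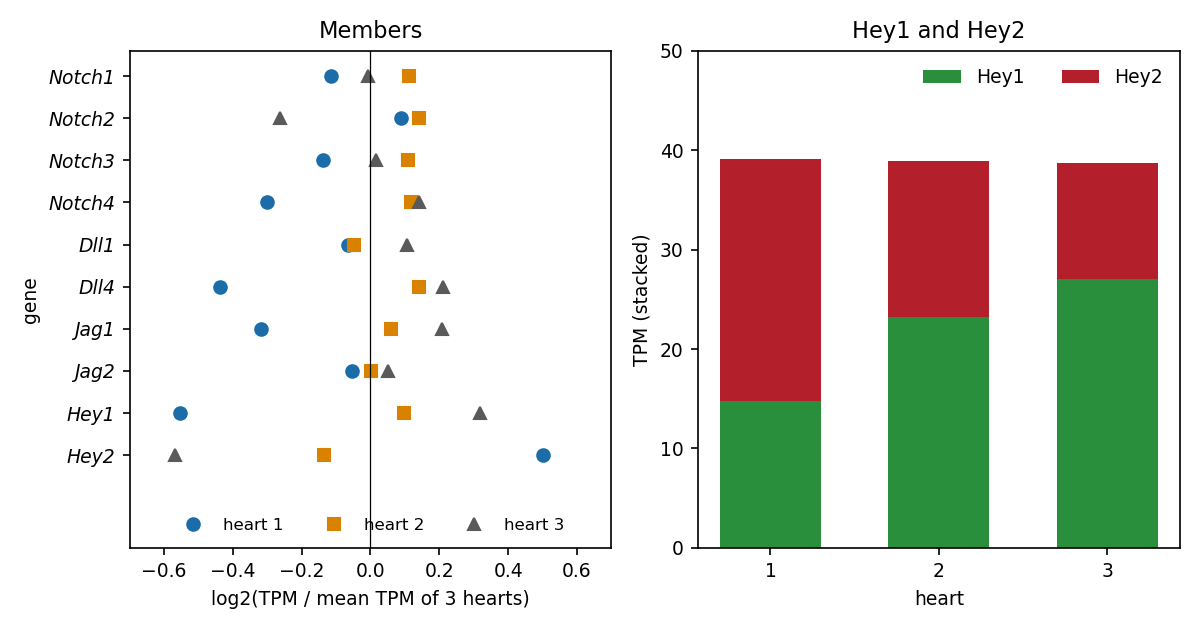
Left, log2 of the TPM in each heart over the mean TPM of the 3 hearts, for the 10 genes (circles, squares and triangles for hearts 1, 2 and 3). Right, stacked bars of Hey1 and Hey2 in TPM for each heart, whose sums are 39.1, 38.9 and 38.7 TPM although heart 1 is lowest for Hey1 and highest for Hey2.

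Each gene was then tested for variation between hearts, by its deviance around its own mean under the dispersion trend of all genes (edgeR goodness of fit). Of the 10 genes, 0 passed the adjusted threshold of 0.05, beside 1.64% of the 13991 genes tested. Hey2 (edgeR adjusted p = 0.0762) and Hey1 (edgeR adjusted p = 0.145) came closest, followed by Dll4 (edgeR adjusted p = 0.538), and these were the 3 with an unadjusted p under 0.05. Over all genes 5.37% had an unadjusted p under 0.05. The number of Notch genes past the threshold stayed at 0 with other size factors, no low-count filter or a common dispersion. It was 0 without each heart in turn as well. Fewer of all genes passed there (107 to 145 beside 230), so that count says little. This test can miss smaller changes, so a gene that did not pass may still vary. The median deviance was 3.30 over the 10 genes and 0.722 over all genes tested.

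As coefficients of variation of the TPM, Hey2 varied by 37.9%, Hey1 by 28.9% and Dll4 by 22.8%. Jag1, Notch4 and Notch2 varied by 18.1%, 16.3% and 14.6%, Notch3, Notch1 and Dll1 by 8.53%, 7.92% and 6.72%, and Jag2 by 3.70%. The median of all detected genes was 8.83%. Heart 1 was the lowest heart for 8 of the 10 genes (all but Notch2 and Hey2), beside 32.6% of detected genes.

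Other values moved with these differences, and their part in them was not tested. Kdr, the main VEGF receptor of endothelium, was at 71.7, 103 and 97.8 TPM, did not pass the test of variation (edgeR adjusted p = 0.707), and was 1 of 7 among the 9 endothelial markers with their lowest value in heart 1. As a percentage of the summed endothelial markers, Dll4 was still lowest in heart 1 (1.18%, 1.57% and 1.69%), and so was Hey1 (1.30%, 1.82% and 2.18%). Notch1 kept nearly the same percentage in each heart (1.75%, 1.82% and 1.72%), as did Notch3 (2.45%, 2.59% and 2.49%).

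Markers of mural cells, the smooth muscle cells and pericytes of vessels, summed to 934, 1514 and 1760 TPM, and 8 of 9 were lowest in heart 1. The highest of them and the only one past the test of variation was Acta2, the smooth muscle actin, at 303, 670 and 918 TPM (edgeR adjusted p = 8.62e-09). With heart 1 high and heart 3 low, as for Hey2, markers of epicardium, the outer cell layer of the heart, summed to 145, 105 and 85.7 TPM, and those of endocardium, its inner lining, to 127, 111 and 95.3 TPM. In each list 2 of 4 markers were highest in heart 1, whereas the epicardial regulator Wt1 (15.2, 16.9 and 17.6 TPM) was lowest there. So were the other 2 endocardial markers, Nfatc1 (17.9, 22.3 and 18.9 TPM) and Cdh11 (27.4, 32.1 and 28.5 TPM). The endocardial sum was highest in heart 1 only with Plvap included. One marker of each list passed the test of variation, Msln (55.6, 33.0 and 28.0 TPM, edgeR adjusted p = 0.0213) and Plvap (57.3, 34.1 and 30.6 TPM, edgeR adjusted p = 0.0497). The arterial and atrial connexin gene Gja5 (58.2, 40.2 and 32.8 TPM) did not pass (edgeR adjusted p = 0.227). Atrial muscle markers summed to 9117, 9246 and 8877 TPM. Within that list 3 of 4 were highest in heart 1 and lowest in heart 3, like Hey2: Myl7 (3644, 2934 and 2728 TPM), Myl4 (1698, 1525 and 1362 TPM) and Sln (483, 458 and 432 TPM). The natriuretic peptide gene Nppa (3292, 4328 and 4355 TPM) had the order of Hey1. Arterial endothelium summed to 211, 220 and 200 TPM, and 5 of its 7 markers were lowest in heart 1. Gja5 and Bmx (6.33, 6.32 and 4.72 TPM) had the order of Hey2, and Sox17 (9.44, 11.1 and 13.0 TPM) that of Hey1. Gja4, Efnb2, Cxcr4 and Nrp1 had neither order, being lowest in heart 1 and highest in heart 2. Of these, Cxcr4 had an edgeR adjusted p of 0.733 for variation. Apart from it and Gja5, given above, each of these atrial and arterial genes had an edgeR adjusted p of 1.00.

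In order of mean level the genes ran from Notch3 through Hey1, Notch1, Jag2, Notch4, Dll4, Hey2, Notch2 and Jag1 to Dll1. Of the 45 pairs, 30 passed the edgeR threshold. When 9 of the 10 genes (all but Hey2) were each set against every gene of the table in the same way, 85.7% of the comparisons passed, so a pair that passes is the usual case. Because the 3 values of one gene enter every line of such a fit, its p-values can be too small, and the pairs were also compared with the variance of each gene from limma, a choice made after the data were seen. By limma 28 pairs passed, all of them among the 30.

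Both ends of the order were set off from the rest. Notch3 was above each of the other 9 genes (largest adjusted p 0.00328 by edgeR and 0.0200 by limma), and exceeded Hey1, its neighbour, by a log2 ratio of 0.53 (95% interval 0.23 to 0.83). Dll1 was below each of the other 9 (largest adjusted p 7.15e-08 by edgeR and 0.000122 by limma), with log2 differences from 1.34 against Jag1 to 2.81 against Notch3. Both statements held for all 9 pairs without each heart in turn, without a length correction and with DESeq2.

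Between them, 6 genes from all roles lay between 17.2 and 21.7 TPM: Hey1, Notch1, Jag2, Notch4, Dll4 and Hey2. Of the 15 pairs among these 6, edgeR called 1 and limma 0, but edgeR called 9 without heart 1, 0 without heart 2, 3 with longest transcript lengths and 11 without a length correction. The 1 call was Notch1 over Dll4, at a log2 ratio of 0.27 (edgeR adjusted p = 0.0409, limma adjusted p = 0.128). It was lost without heart 1 (0.12, edgeR adjusted p = 0.136), without heart 2 (0.29, edgeR adjusted p = 0.0647) and by DESeq2 (adjusted p = 0.0955). Neighbours in the order differed by -0.020 (Hey1 and Notch1, 95% interval -0.32 to 0.28), 0.16 (Notch1 and Jag2, -0.03 to 0.36), 0.025 (Jag2 and Notch4, -0.35 to 0.40), 0.08 (Notch4 and Dll4, -0.30 to 0.46) and 0.12 (Dll4 and Hey2, -0.44 to 0.68). Each of these intervals holds 0, and they leave room for differences of the sizes they span. Among neighbours, Notch1 exceeded Jag2 without heart 1 (0.20, edgeR adjusted p = 0.0165), and Dll4 exceeded Hey2 (0.60, edgeR adjusted p = 7.06e-07). Notch1 also exceeded Jag2 with longest transcript lengths (0.31, edgeR adjusted p = 0.00588).

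Below these genes, Hey2 exceeded Notch2 by 0.33 in 3 of 3 hearts (95% interval 0.02 to 0.64, edgeR adjusted p = 0.0427). Neither limma (adjusted p = 0.181) nor DESeq2 (adjusted p = 0.0976) made that call. The edgeR adjusted p was 0.0877 for longest transcript lengths (0.28), 0.766 when heart 1 was left out (0.090) and 0.0626 when heart 2 was (0.44). Notch2 over Jag1 was 0.26 (95% interval -0.05 to 0.56) and was not called (edgeR adjusted p = 0.110), except when heart 3 was left out (0.50, adjusted p = 0.00245). Without a length correction Notch2 was above both Jag1 (Notch2 over Jag1, 1.16) and Hey2 (Hey2 over Notch2, -1.76). Its transcript is the longest of the 10, at 10436 bases.

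**Figure D3:**
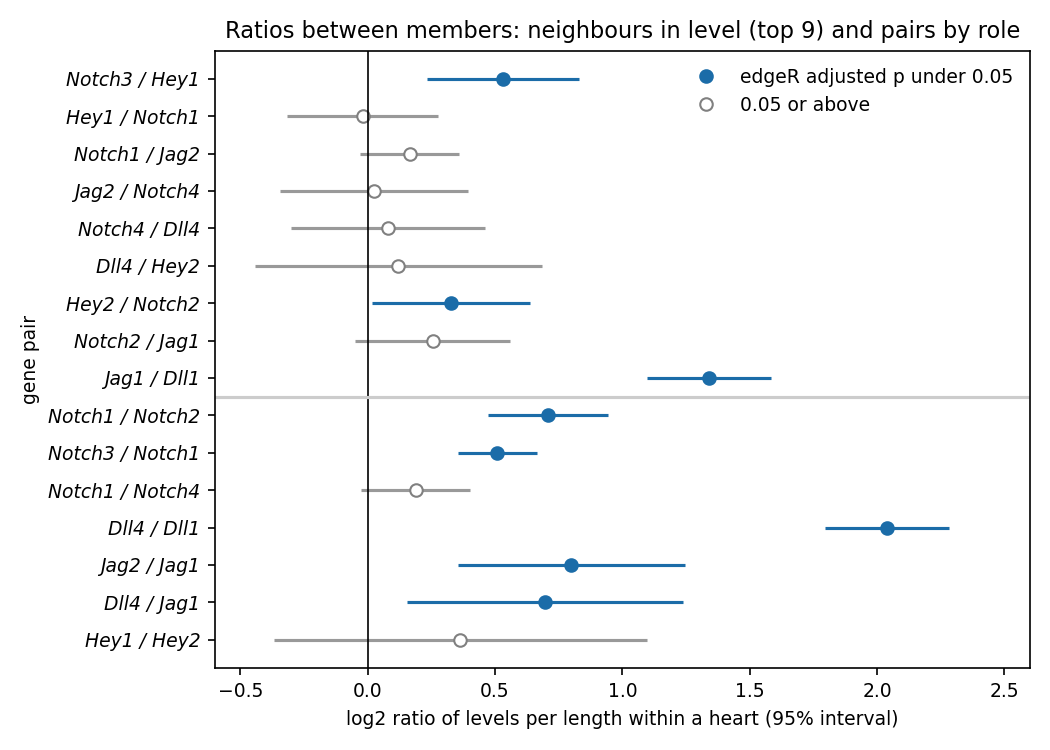
Log2 ratio of the first gene to the second within a heart, per length, with its 95% interval, for the 9 pairs of neighbours in mean level (above the grey line) and for 7 pairs within or between roles (below it). Filled points passed an edgeR adjusted p of 0.05. The intervals of 6 neighbouring pairs hold 0, and Dll4 over Dll1 is the largest ratio shown, at 2.04.

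Genes whose levels lay nearest over the 3 hearts were looked up in the whole table, by Euclidean distance in log2(TPM + 0.1). For Notch3 they were Fnbp1l (distance 0.0183) and Necap1 (0.0336), for Jag2 Hemk1 (0.0219) and Nfkb2 (0.0277), and for Hey1 Errfi1 (0.0779) and Nedd9 (0.0822). With 3 hearts this is a likeness of level and no more.

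Of 56 other Notch pathway genes in the lists, 55 were in the table and 47 were detected, beside 12958 of all 18038 genes. Among Hes and Hey targets and feedback genes, 5 of 9 were detected. Hes1, a repressor that Notch induces in many tissues, led with 53.5, 64.5 and 67.4 TPM (61.8 ± 7.33), above every one of the 10 genes in each heart. Heyl, the third Hey gene, was at 35.2 ± 3.64 TPM, above both Hey1 and Hey2 in mean level, and the arterial gene Efnb2, also in the arterial marker list, at 31.7 ± 4.01 TPM. Nrarp, a feedback inhibitor of the receptor complex, was at 23.6, 29.7 and 40.0 TPM and Hes6 at 37.1, 29.5 and 23.8 TPM. Nrarp thus had the same order of hearts as Hey1, and Hes6 that of Hey2, but neither passed the test of variation (edgeR adjusted p = 0.149 and 1.00).

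Machinery that acts on ligands and receptors was detected throughout, with 1 exception. Of the ubiquitin ligases that make ligands pull, Mib1 was at 15.6 ± 1.55, Mib2 at 14.9 ± 0.839 and Neurl1b at 12.6 ± 2.59 TPM, and the fourth, Neurl1a, was below the detection minimum in heart 2. All 10 genes of receptor cleavage were detected, led by gamma-secretase subunits: Psenen at 150 ± 8.47, Ncstn at 76.4 ± 3.78 and Aph1a at 74.6 ± 2.19 TPM. Some reads of Ncstn and Aph1a had been divided with other genes. All 9 genes of receptor glycosylation were detected, with Rfng at 30.4 ± 2.82, Eogt at 21.2 ± 2.45 and Mfng at 16.9 ± 1.34 TPM. Rfng and Mfng encode Fringe enzymes, which change the preference of a receptor between Delta and Jagged ligands.

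In the nucleus, Rbpj was at 28.6, 31.9 and 27.7 TPM (29.4 ± 2.19), and the cofactor genes Snw1 and Kat2b at 64.4 ± 4.49 and 59.5 ± 1.98 TPM. All 7 genes of that complex in the table were detected. So were all 11 genes of repression and turnover, with Dtx3 at 69.3 ± 5.83 and the ubiquitin ligase gene Fbxw7 at 51.5 ± 3.15 TPM. The fewest detected were other ligands and modulators, 2 of 5: Egfl7, secreted by endothelium and also in the endothelial marker list, at 137 ± 12.3 TPM and Dlk1, a membrane protein that lacks the receptor-binding Delta domain, at 36.5, 12.4 and 14.9 TPM. Dner followed at 0.560 ± 0.217 TPM, below the minimum in heart 2. The ligand gene Dll3 had 0 counts in every heart, which allows up to about 0.113 TPM for a typical gene in the shallowest library.

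Of the 49 pathway genes with enough counts for the test of variation, Dlk1 alone passed (edgeR adjusted p = 1.72e-05), being high in heart 1. Their median deviance was 0.647.

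**Figure D4:**
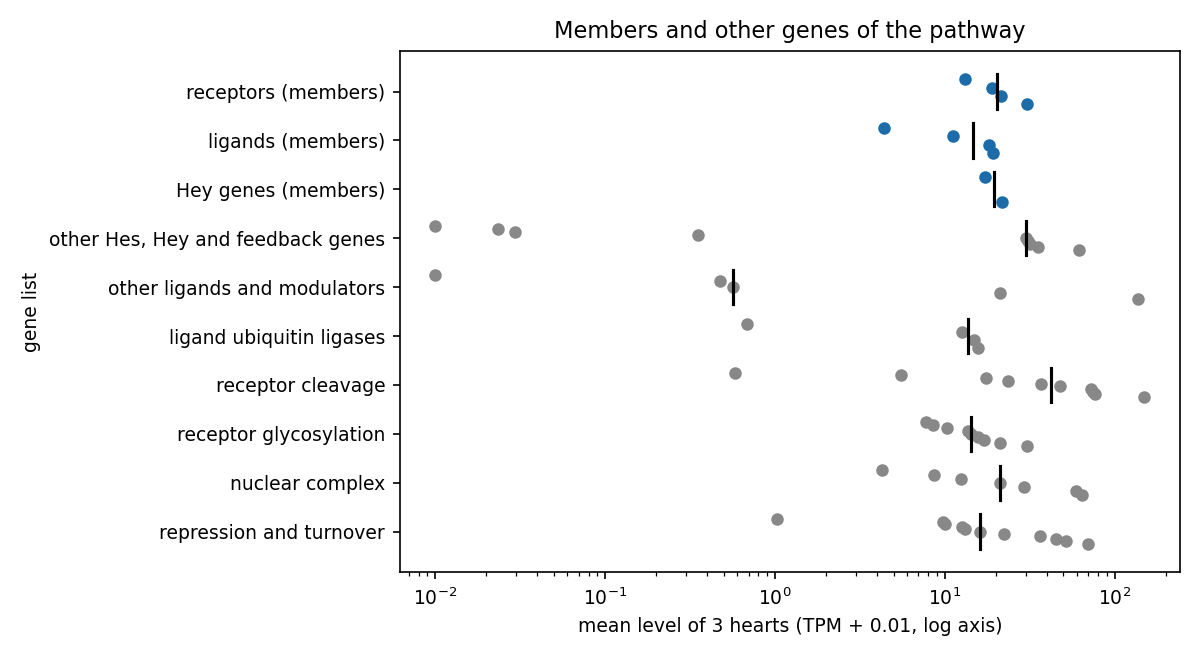
Mean level over the 3 hearts, in TPM + 0.01 on a log axis, of the 10 genes by role (blue) and of the other pathway genes by list (grey), with the median of each list as a vertical line. The 10 genes lie between 4.36 and 30.6 TPM, within the range of the machinery lists, and genes at the far left are at or near 0 counts.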

How the data were processed

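RNA of 3 hearts of 1 group was analysed. Per the file headers, the deposited table gives read counts per gene and FPKM, both computed by the authors. In each heart 87.5% to 87.6% of counts lay within 0.005 of a whole number, so the deposited values were treated like expected counts, in which a read can be divided between genes, and rounded for tests. The submitters' processing notes name HISAT and GRCm38.p6. For the counting tool, annotation and strand, the setting is not given in the sources used here. One line without values and 2 columns of the authors' means were left out.

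TPM is the FPKM rescaled to 1000000 per heart, and CPM the counts scaled likewise. Gene lengths were those implied by count and FPKM. Counts of each pair of hearts differed by far more than sampling noise (chi-square per degree of freedom 9.70 to 23.7), so each counted as 1 sample. A count of 0 allows 3 counts, for counting error only. The pair test was edgeR 4.0.16 under R 4.3.3, two-sided, over genes with a mean of at least 10 counts, on TMM-scaled libraries with Benjamini-Hochberg adjustment over all genes tested. Alternatives used DESeq2 1.42.0 and limma 3.58.1. Both tests were run on simulated data. There the pair test recovered genes set to a single level well below Notch1 but also called some that were set equal. Smaller differences between genes, the size of most ratios named here, were not simulated. The test of variation recovered genes given a large change in a heart but missed many given a smaller one.

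The genes and lists were chosen with earlier results of these data known. Named are the 10 genes, the 3 highest of each pathway list (except for an item that is not reported here) and those past the test of variation, pairs of neighbours in level, 7 pairs by role, and for the highest receptor, ligand and Hey gene the 2 genes nearest in level. Hes5, Hes6, Hes7, Nrarp, Dll3, Neurl1a and the marker genes were named after their values were seen. Rbpjl and Foxn1 had no match by symbol and are not analysed here. Heart lists not named above (venous endothelium 127 to 132, fibroblast 3366 to 3582, macrophage 165 to 214, Schwann cell 8.34 to 30.9, thymus and T cell 1.58 to 2.47 TPM in sum) were read as well.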

Additional observations from a re-analysis of the deposited data

How the results depend on the processing

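The heart was a block in the pair tests. Of the 45 pairs, 30 passed with it and 31 with no replicate block, 27 to 38 under the other settings with all 3 hearts, and 22 to 36 without 1 heart. No paired comparison between groups was possible because there is 1 group. Genes varying between hearts numbered 230, and 107 to 145 without 1 heart, where fewer samples entered. Receptors over ligands was 1.65 without a length correction and 0.63 to 0.76 without 1 heart. The sign of 6 named log2 ratios depended on a setting. Hey1 over Notch1 was 0.020 with no replicate block and -0.21 to 0.17 without 1 heart. Jag2 over Notch4 was -0.48 without a length correction, -0.11 with longest transcript lengths and -0.094 to 0.10 without 1 heart. Dll4 over Hey2 was -0.25 to 0.60 and Hey1 over Hey2 -0.075 to 0.89 without 1 heart. Hey2 over Notch2 was -1.76 and Dll4 over Jag1 -0.027 without a length correction. Where a heart or the block was left out, the cause was not tested. Depth limits Dll1 most, with 128 to 158 counts. All alternatives were planned except limma.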
